A study of Homo sapiens with 15 samples.

Results

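The 6 genes described here encode enzymes that remove superoxide and hydrogen peroxide: the superoxide dismutases SOD1, SOD2 and SOD3, catalase (CAT), the mitochondrial peroxiredoxin PRDX3 and its electron donor, the mitochondrial thioredoxin TXN2. They were taken by gene name from a deposited table of 60675 genes, and 5 of the 6 passed the filter on low counts that left 17780 genes for testing. The set was chosen because the value of SOD2 was low in cells given TMP195, so every value that sets TMP195 against another group is given as a description, with no test of the members.

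All libraries came from HT1080, an established human fibrosarcoma line, as total RNA depleted of ribosomal RNA. One group was wild-type cells given 1 µM TMP195, an inhibitor of class IIa lysine deacetylases, for 2 days (3 libraries). The others were untreated cells whose own gene for a class IIa deacetylase carried a single change: KDAC7 (HDAC7) H709A (4 libraries), KDAC4 (HDAC4) H803A (3 libraries) and KDAC4 H976Y (4 libraries). The title speaks of inactive enzymes and the design text also of enhanced ones, and in KDAC4 the change H976Y is known to raise catalytic activity. The labels do not say whether a variant is 1 clone or whether replicates are separate cultures, so a p-value sets a difference against the scatter of these libraries alone, and that scatter may be technical. Untreated wild-type cells were not analysed here, so an effect of TMP195 and a difference of all 3 variants from wild type cannot be told apart.

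Superoxide, made mainly by the respiratory chain and by NADPH oxidases, is turned into hydrogen peroxide by dismutases: SOD1, a copper and zinc enzyme of the cytosol and intermembrane space, SOD2, the manganese enzyme of the mitochondrial matrix, and SOD3, a secreted enzyme bound to the cell surface and matrix. Hydrogen peroxide is then broken down by catalase in peroxisomes and by peroxiredoxins. PRDX3 does this in the mitochondrial matrix and is reduced again by TXN2. SOD2 transcription is known to be induced by NF-kB and, with CAT, by FOXO factors.

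The promoters of SOD2, CAT and PRDX3 are shown because SOD2 was the member that separated TMP195 libraries, while CAT and PRDX3 varied together across libraries. Each runs from 250 bases before to 50 bases after an annotated start (RefSeq, GRCh38.p14), 5′ to 3′ on the strand of the gene, with every GC box (GGGCGG or its complement CCGCCC, the motif bound by SP1) in capitals. The SOD2 window is chr6:159693192-159693491 (minus strand), the CAT window chr11:34438684-34438983 (plus strand) and the PRDX3 window chr10:119178763-119179062 (minus strand).
SOD2: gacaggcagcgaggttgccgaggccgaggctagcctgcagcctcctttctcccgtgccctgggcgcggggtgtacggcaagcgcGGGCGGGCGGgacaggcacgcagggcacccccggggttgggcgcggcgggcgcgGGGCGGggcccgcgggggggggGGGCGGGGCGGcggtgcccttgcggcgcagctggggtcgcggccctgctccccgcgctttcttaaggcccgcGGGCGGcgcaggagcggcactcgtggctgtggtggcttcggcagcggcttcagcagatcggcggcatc
CAT: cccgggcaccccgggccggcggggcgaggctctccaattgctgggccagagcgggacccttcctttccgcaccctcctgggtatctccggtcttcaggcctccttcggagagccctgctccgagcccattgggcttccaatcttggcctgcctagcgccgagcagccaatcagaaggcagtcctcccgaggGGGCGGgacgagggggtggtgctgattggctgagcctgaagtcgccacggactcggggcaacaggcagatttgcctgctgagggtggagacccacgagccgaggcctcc
PRDX3: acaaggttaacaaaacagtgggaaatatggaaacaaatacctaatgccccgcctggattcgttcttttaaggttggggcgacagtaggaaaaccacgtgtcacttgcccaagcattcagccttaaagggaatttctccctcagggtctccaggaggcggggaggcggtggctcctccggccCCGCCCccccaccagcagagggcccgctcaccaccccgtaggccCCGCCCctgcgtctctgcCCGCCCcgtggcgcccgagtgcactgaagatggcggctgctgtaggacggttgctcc
RefSeq gives 4 windows for SOD2, and the one shown contains the start of its longest GENCODE transcript. It held 6 GC boxes, of which neighbours overlap, 78.3% G and C and 0 CCAAT boxes (CCAAT on either strand). The 3 SOD2 windows not shown held 1, 4 and 1 GC boxes, 69.3, 77.3 and 68.0% G and C, and 1, 0 and 3 CCAAT boxes. The PRDX3 window held 3 GC boxes and 61.3% G and C. The CAT window held 1 GC box, 68.0% G and C and 5 CCAAT boxes. A GC box stood in 45.0% and a CCAAT box in 34.6% of 35116 promoter windows of this length, whose median G and C content was 58.7%. None of the 3 printed windows held the FOXO letters TGTTTAC, found in 3.42% of all windows, or the NF-kB consensus, found in 7.73%. A match or its absence describes these letters only.

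Total counts per library ran from 6151383 to 24297487, and 1 CPM, the usual count per scaled library size, stood for 4.86 to 23.9 counts. The mesenchymal markers VIM (2690 CPM or more), CD44, LGALS1 and FN1 were high throughout, as a fibrosarcoma line would have them, while S100A4 and NT5E were at most 1.13 and 2.60 CPM. Blood markers summed to at most 0.317 CPM and endothelial markers to at most 3.82 CPM. Epithelial markers summed to 195 to 494 CPM through KRT8 and KRT18, with EPCAM at most 0.0965 CPM. KDAC4 H803A replicate 1 had counts closer to those of KDAC7 H709A replicate 4 than any other pair of libraries had to each other, with a chi-square per degree of freedom of 2.15, and KDAC7 H709A replicate 1 was closest to KDAC4 H803A replicate 3 (35.1). Whether the names of KDAC4 H803A replicate 1 and KDAC7 H709A replicate 1 are exchanged is not known from the sample descriptions. If they were, the means of KDAC7 H709A and KDAC4 H803A and every fold change that uses either group would differ from those given. Results for members and totals of gene lists are given with and without these libraries where the call depends on them, and values of single pathway genes are from all 14 libraries. Mitochondrially encoded ribosomal RNA took 16.1 to 31.5% of counts in KDAC4 H976Y libraries, against at most 0.345% elsewhere, so a difference in library composition and the H976Y change cannot be told apart.

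SOD2 (ENSG00000112096, chromosome 6, 159669057 to 159745186 on GRCh38, minus strand) had 47.7, 45.7 and 41.9 CPM in the TMP195 libraries. It had 384, 438, 397 and 336 CPM in KDAC7 H709A, 330, 302 and 352 CPM in KDAC4 H803A, and 229, 218, 209 and 437 CPM in KDAC4 H976Y. The highest TMP195 library lay 4.38-fold below the lowest variant library, and no TMP195 library overlapped any other group. The log2 fold change was -2.86 for TMP195 against the mean of the 3 variants (7.24-fold lower), -3.11 against KDAC7 H709A, -2.86 against KDAC4 H803A and -2.60 against KDAC4 H976Y. Among the 17780 genes tested, 507 had a log2 fold change against the mean of the variants as low or lower, and the median of all genes was -0.04. In that comparison 9.22% of all tested genes were called, 3.98% higher and 5.24% lower, which is background here because the comparison chose the gene.

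**Figure D1:**
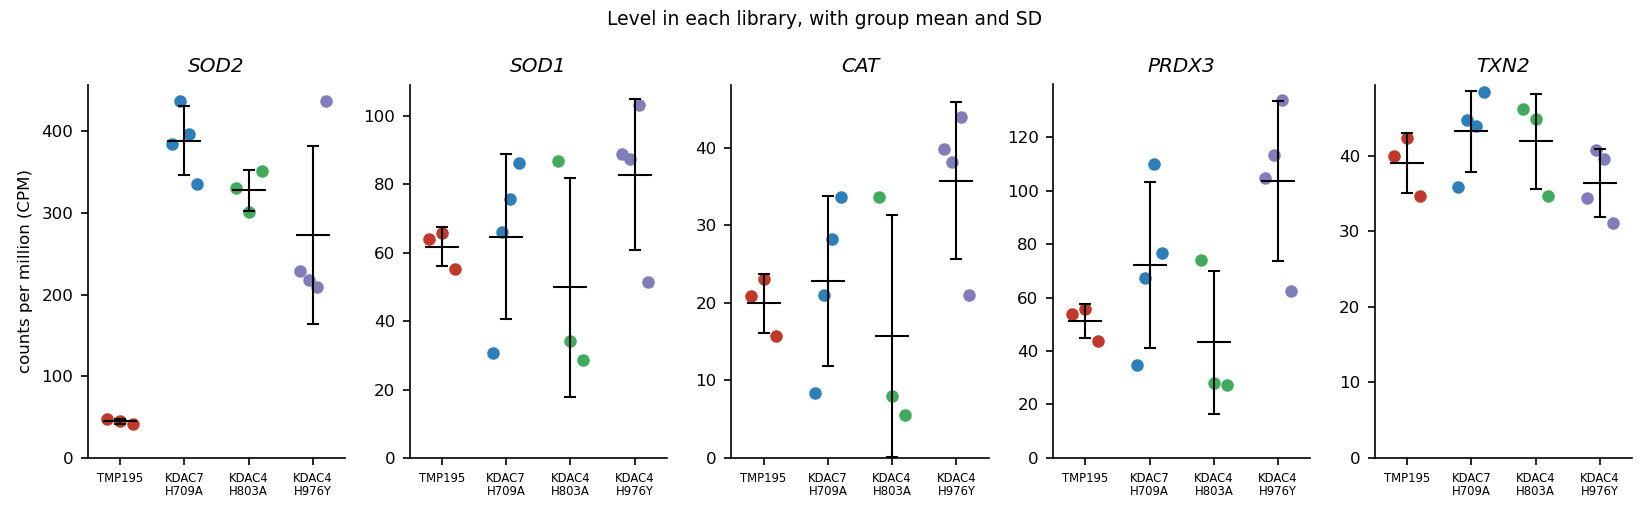
CPM of the 5 tested members in each of the 14 libraries (points), with the mean and SD of each group (bars). SOD2 lies between 41.9 and 47.7 CPM with TMP195 and at 209 CPM or more elsewhere, while SOD1, CAT and PRDX3 spread widely within the KDAC7 H709A and KDAC4 H803A groups and TXN2 stays between 31.1 and 48.5 CPM.

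The SOD2 count is a value for the whole gene model, and most of that model is not coding sequence. GENCODE v29 lists 14 SOD2 transcripts, the longest of 14266 bases and the next of 4302 bases. The effective length deposited for SOD2 was 13491 bases, close to the longest transcript. That transcript has 669 coding bases, stop included, and a 3′ untranslated region of 13436 bases. Expected counts of SOD2 were not whole numbers in all 14 libraries, which happens where reads that match several transcripts are shared out among them. For SOD1, CAT and TXN2 all 14 counts were whole, and for PRDX3 the count was not whole in 3 libraries.

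After these values were seen, the longest transcript of each tested member was aligned to all GENCODE v29 transcripts. SOD2 shared an aligned stretch of at least 500 bases at 85% identity or more with transcripts of 137 other genes, of which 107 were tested. SOD1, CAT and PRDX3 shared none, and TXN2 shared one with a single tested gene, RP11-486G15.1. In SOD2 the stretch held by at least 10 other genes ran from base 6552 to base 12708 of the transcript, 6157 bases within the 3′ untranslated region (chr6:159670615-159676771). Of the 137 genes, 132 had an aligned part of at least 500 bases inside it. Below, genes that share the stretch are those with such a part anywhere in the SOD2 transcript, and different genes can share different parts. Long repeats of this kind in human transcripts are mostly LINE-1 elements, mobile sequences with many copies. The family of this stretch was not looked up in a repeat annotation. Its letters are not printed.

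The 107 genes that share the stretch had a median log2 fold change of -2.47 for TMP195 against the mean of the 3 variants, beside -2.86 for SOD2 and -0.04 for all tested genes. Of these genes 99 had a negative value, 72 were called lower and none higher (edgeR). Of all tested genes, 52.5% had a negative value, 5.24% were called lower and 3.98% higher. Values were lower the longer the stretch required: the median was -0.80 for the 254 genes that share 300 bases or more, -2.60 for the 62 that share 1000 or more and -2.64 for the 23 that share 2000 or more. Over 21 alternatives the median of the 107 genes ran from -2.55 to -2.08, with 62 to 86 of them called lower and 0 to 4 called higher. Without both libraries that stand apart it was -2.44, with 86 called lower and 4 higher. The genes were chosen for their sequence after SOD2 was seen, and no test was made of the set. A gene can pass the filter on low counts through the variant libraries alone, which can favour low values with TMP195 among the 107 genes. The same filter was used for all tested genes.

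**Figure D2:**
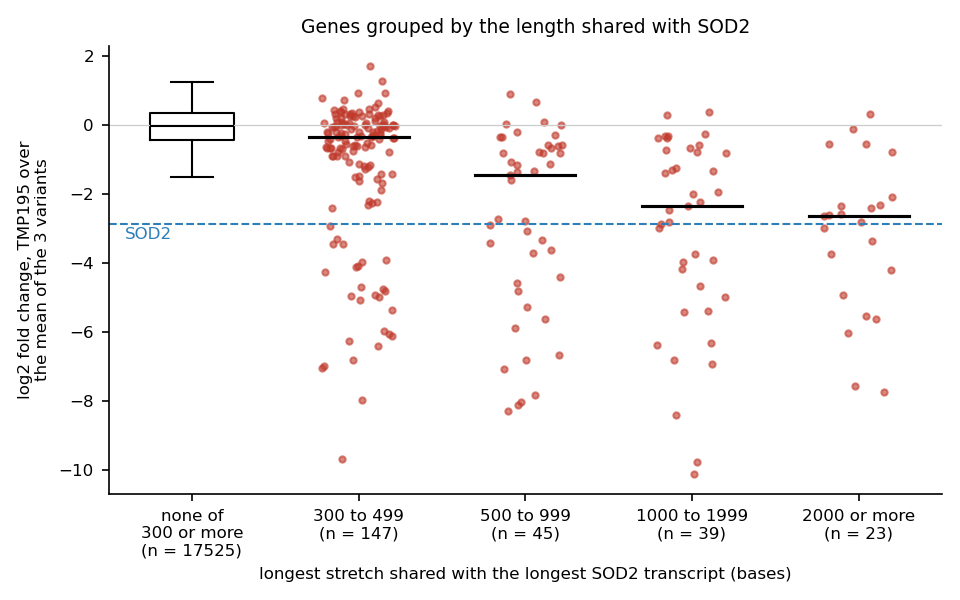
Log2 fold change of TMP195 over the mean of the 3 variants (vertical axis) for tested genes grouped by the longest stretch shared with the longest SOD2 transcript (points, with medians as bars). The box at the left gives the median, quartiles and 5th to 95th percentiles of the 17525 genes that share less than 300 bases, and the dashed line marks SOD2 at -2.86, near the medians of the genes that share 1000 bases or more.

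The same genes followed SOD2 from library to library. Deviations were taken on log2(CPM + 0.5) from each gene's mean over the 14 libraries. In the TMP195 libraries the median deviation of the 107 genes was -1.76, -1.84 and -1.73, and that of SOD2 was -2.13, -2.19 and -2.32. In KDAC4 H976Y the median of the 107 genes was 0.22, 0.10, 0.08 and 1.00, and that of SOD2 was 0.12, 0.05, -0.01 and 1.05. The KDAC4 H976Y library in which SOD2 was high was thus also the highest of its group for the genes that share the stretch. Across the 11 variant libraries, which leave out TMP195, Pearson's r was 0.952 and Spearman's rho 0.936, and without KDAC4 H976Y replicate 4 r was 0.961 (n = 10). These are descriptions over libraries that share depth and composition.

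**Figure D3:**
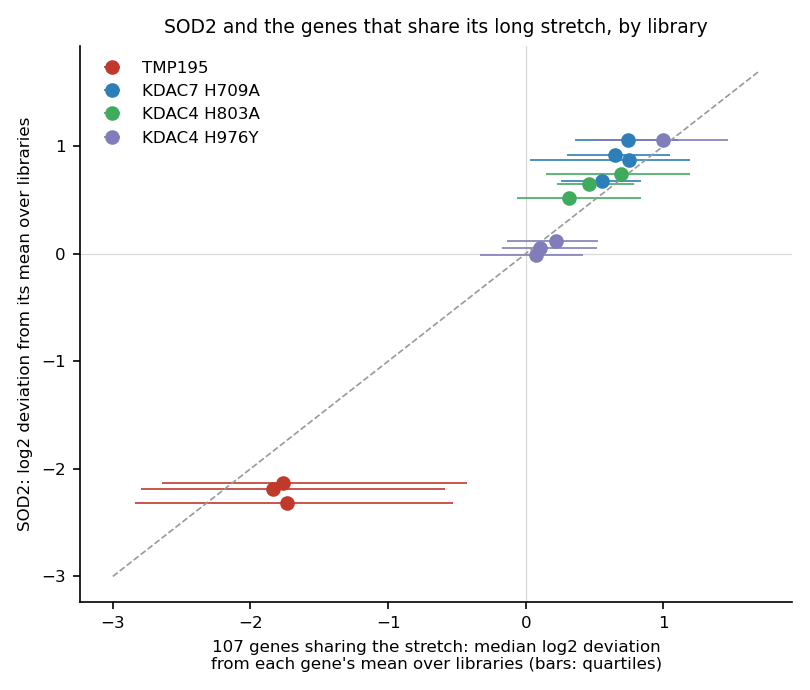
SOD2 (vertical axis) against the median of the 107 genes that share its long stretch (horizontal axis, bars from the lower to the upper quartile), both as log2 deviations from the mean over libraries, 1 point per library, with the line of equality dashed. The TMP195 libraries lie at the lower left, and KDAC4 H976Y replicate 4 lies apart from its group along the same line.

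Among the 9892 other genes with a mean of at least 10 CPM, 79 had a value with TMP195 as low as that of SOD2. Of these 79 genes, 31 shared the stretch (39.2%), and of the 81 genes at this level that share it, 31 were as low (38.3%), while 0.819% of all 9892 genes share it. The cut is the SOD2 value in the comparison that chose SOD2, and reads may be shared among genes with the stretch. These shares are therefore a description and were not tested. The 5 genes whose log2 CPM was most like that of SOD2 over the 14 libraries were ENSG00000275512 (r = 0.999), RP1-78O14.1 (0.995), C4orf32 (0.994), RP11-624A21.1 (0.993) and LINC00504 (0.992), out of 9892 genes compared. All 5 share the stretch, over 957 bases at 93.2% identity for ENSG00000275512, 1056 bases at 88.6% for RP1-78O14.1, 2446 bases at 93.7% for C4orf32, 3056 bases at 90.1% for RP11-624A21.1 and 3371 bases at 93.1% for LINC00504. This ranking includes the TMP195 libraries, for which SOD2 was chosen, so it favours genes that are low with TMP195. No ranking without those libraries was made. LINC00504, on chromosome 4, averaged 13.2 ± 1.61 CPM with TMP195, 260 ± 34.9 in KDAC7 H709A, 252 ± 37.2 in KDAC4 H803A and 220 ± 129 in KDAC4 H976Y (SD, n = 3, 4, 3 and 4). The deposited table gives 1 value per gene, so reads from the coding part of SOD2 and reads from the shared stretch cannot be told apart, and the part of the shared stretch in the SOD2 value was not tested.

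Genes near SOD2 did not share its level with TMP195. Of 39 tested genes that start within 5 Mb, the median log2 fold change of TMP195 against the mean of the variants was 0.37. MAS1, a receptor gene with a mean of 0.803 CPM and the lowest of the neighbours, was the single one as low as SOD2, at -4.70. WTAP, which encodes a subunit of the RNA adenosine methyltransferase complex and overlaps SOD2 on the other strand, was at 0.13 and ranged from 32.8 to 90.0 CPM. The strand setting of the counting is not given in the sources used here, so reads of this pair may not be separable. The processed copy SOD2P1 had no counts.

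Between variant groups SOD2 was not called. Its log2 fold change was 0.51 ± 0.22 (SE) for KDAC7 H709A against KDAC4 H976Y (edgeR quasi-likelihood test, adjusted p = 0.158), in a comparison that called 12.5% of all tested genes. In KDAC4 H803A against KDAC4 H976Y the value was 0.26 ± 0.24 (adjusted p = 0.441), where 15.1% were called, and 0.25 ± 0.24 for KDAC7 H709A against KDAC4 H803A (adjusted p = 0.637), where 0% were called. KDAC4 H976Y replicate 4, at 437 CPM beside 209 to 229 CPM in the other replicates of its group, decides the first and second of these. Without it SOD2 was higher by 0.83 in KDAC7 H709A than in KDAC4 H976Y (adjusted p = 0.00364) and by 0.57 in KDAC4 H803A than in KDAC4 H976Y (adjusted p = 0.0280). Fits that left out 1 library called 1215 to 3440 of all tested genes in the first comparison and 1129 to 8431 in the second. The 107 genes that share the stretch had medians of 0.29, 0.10 and 0.23 in the 3 comparisons, in the order given, beside 0.09, 0.09 and 0.02 for all tested genes. The 39 tested genes that start within 5 Mb of SOD2 had medians of 0.41, -0.15 and 0.62 in the same order. With offsets for GC content and length the difference of SOD2 between KDAC7 H709A and KDAC4 H803A had the opposite sign (-0.0048).

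SOD1 (ENSG00000142168, chromosome 21, 31659622 to 31668931, plus strand) had 64.1, 65.9 and 55.3 CPM with TMP195. It had 30.7, 66.0, 75.9 and 86.2 CPM in KDAC7 H709A, 86.8, 34.3 and 28.6 CPM in KDAC4 H803A, and 89.0, 87.5, 103 and 51.5 CPM in KDAC4 H976Y. The TMP195 libraries lay within the range of each variant group, and the log2 fold change of TMP195 against the mean of the variants was -0.06. Within the KDAC7 H709A group the highest library exceeded the lowest 2.81-fold, and within KDAC4 H803A 3.03-fold. No difference between variants was called: -0.36 ± 0.37 in KDAC7 H709A and -0.73 ± 0.41 in KDAC4 H803A, each against KDAC4 H976Y (adjusted p = 0.590 and 0.218), and 0.37 ± 0.40 in KDAC7 H709A against KDAC4 H803A (adjusted p = 0.657, edgeR). The genes most like it were JAK1 (r = 0.992), PRCP (0.989) and TMX2 (0.989).

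SOD3 (ENSG00000109610, chromosome 4, 24789912 to 24800842, plus strand) was not measurable. It had 1, 0 and 1 counts with TMP195, 0 in all 4 KDAC7 H709A libraries, 0, 2 and 0 in KDAC4 H803A and 0, 1, 0 and 0 in KDAC4 H976Y. A count of 0 allows up to 3 counts, which is 0.126 to 0.618 CPM depending on the library, for counting error only. It was below the filter and no fold was computed.

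CAT (ENSG00000121691, chromosome 11, 34438925 to 34472062, plus strand) had 20.9, 23.1 and 15.8 CPM with TMP195. It had 8.40, 21.0, 28.3 and 33.6 CPM in KDAC7 H709A, 33.6, 7.95 and 5.48 CPM in KDAC4 H803A, and 39.8, 38.2, 44.0 and 21.0 CPM in KDAC4 H976Y. The TMP195 libraries fell inside the ranges of KDAC7 H709A and KDAC4 H803A, and the log2 fold change against the mean of the variants was -0.24. CAT varied 6.13-fold within KDAC4 H803A and 4.00-fold within KDAC7 H709A. None of its differences between variants was called: -0.65 ± 0.52 in KDAC7 H709A and -1.18 ± 0.57 in KDAC4 H803A, each against KDAC4 H976Y (adjusted p = 0.468 and 0.166), and 0.53 ± 0.56 in KDAC7 H709A against KDAC4 H803A (adjusted p = 0.653, edgeR). VDAC1, the outer mitochondrial membrane channel (r = 0.996), RAD21 (0.991) and TENM3 (0.989) were most like it.

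PRDX3 (ENSG00000165672, chromosome 10, 119167703 to 119178833, minus strand) had 53.8, 55.6 and 43.8 CPM with TMP195. It had 34.7, 67.3, 110 and 76.8 CPM in KDAC7 H709A, 74.2, 28.1 and 27.3 CPM in KDAC4 H803A, and 105, 113, 134 and 62.4 CPM in KDAC4 H976Y. The TMP195 libraries lay below every KDAC4 H976Y library and inside the ranges of the other variants, and the log2 fold change against the mean of the variants was -0.43. PRDX3 was the member nearest to a call between variants, at -1.26 ± 0.42 for KDAC4 H803A against KDAC4 H976Y (edgeR, adjusted p = 0.0601). It was -0.52 ± 0.38 for KDAC7 H709A against KDAC4 H976Y (adjusted p = 0.418) and 0.74 ± 0.42 for KDAC7 H709A against KDAC4 H803A (adjusted p = 0.634). DESeq2 called the lower value in KDAC4 H803A than in KDAC4 H976Y (adjusted p = 0.0169), as did edgeR with GC and length offsets (adjusted p = 0.0222), and over all alternatives the adjusted p ran from 5.42e-05 to 0.243. It was also called without KDAC4 H976Y replicate 4 (adjusted p = 0.0475) and without KDAC7 H709A replicate 1 (adjusted p = 0.0241). In this comparison DESeq2 called 4377 of all 17780 tested genes and edgeR 2679. Fits that left out 1 library called 1129 to 8431. The copy PRDX3P1 had 5 to 28 counts and the other PRDX3 copies at most 13. MMADHC (r = 0.991), the mitochondrial protease YME1L1 (0.987) and DIP2B (0.985) were most like PRDX3.

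TXN2 (ENSG00000100348, chromosome 22, 36467036 to 36482030, minus strand) had the narrowest range of the tested members over the 14 libraries, 31.1 to 48.5 CPM. Within groups SOD2 had a lower coefficient of variation than TXN2 with TMP195 (6.57 and 10.1%), in KDAC7 H709A (10.8 and 12.3%) and in KDAC4 H803A, and a higher one in KDAC4 H976Y. TXN2 had 39.9, 42.4 and 34.6 CPM with TMP195, 35.8, 44.7, 43.9 and 48.5 in KDAC7 H709A, 46.1, 44.9 and 34.6 in KDAC4 H803A, and 34.3, 40.7, 39.5 and 31.1 in KDAC4 H976Y. All 4 groups overlapped, and the log2 fold change of TMP195 against the mean of the variants was -0.05. Between variants it was 0.25 ± 0.16 in KDAC7 H709A and 0.20 ± 0.18 in KDAC4 H803A, each against KDAC4 H976Y (adjusted p = 0.371 and 0.428), and 0.05 ± 0.18 in KDAC7 H709A against KDAC4 H803A (adjusted p = 0.906, edgeR). The last of these had the opposite sign without KDAC4 H803A replicate 3 (-0.07) and without KDAC7 H709A replicate 4 (-0.02). CCND3 (r = 0.942), ORAI1 (0.938) and VKORC1 (0.910) were most like it.

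SOD1, CAT and PRDX3 varied together, apart from SOD2 and TXN2. Over the 14 libraries the Pearson correlation of log2 CPM was 0.984 for SOD1 and CAT, 0.925 for SOD1 and PRDX3 and 0.946 for CAT and PRDX3. SOD2 correlated with these genes at -0.13 to 0.10, and TXN2 at 0.21 to 0.37. Their low libraries were those with the most GC-rich counts. GC balance, the median log2 deviation of tested genes in the top quartile of GC content minus that of genes in the bottom quartile, was 1.19 in KDAC7 H709A replicate 1 and 1.36 and 1.29 in KDAC4 H803A replicates 2 and 3. In these 3 libraries SOD1 had 28.6 to 34.3 CPM, CAT 5.48 to 8.40 CPM and PRDX3 27.3 to 34.7 CPM. In the 8 libraries with a balance below 0 SOD1 had 51.5 to 103 CPM, CAT 21.0 to 44.0 CPM and PRDX3 62.4 to 134 CPM. The TMP195 libraries had a balance of 0.35, 0.45 and 0.53 and lay between these sets for PRDX3 (43.8 to 55.6 CPM), within the upper set for SOD1 (55.3 to 65.9 CPM) and at 15.8 to 23.1 CPM for CAT. TXN2 had 34.6 to 44.9 CPM in the 3 GC-rich libraries and 31.1 to 48.5 CPM in the 8 others. Within these 8 libraries alone the correlations were 0.937, 0.741 and 0.784 in the order given. The part of GC balance in these levels was not tested.

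**Figure D4:**
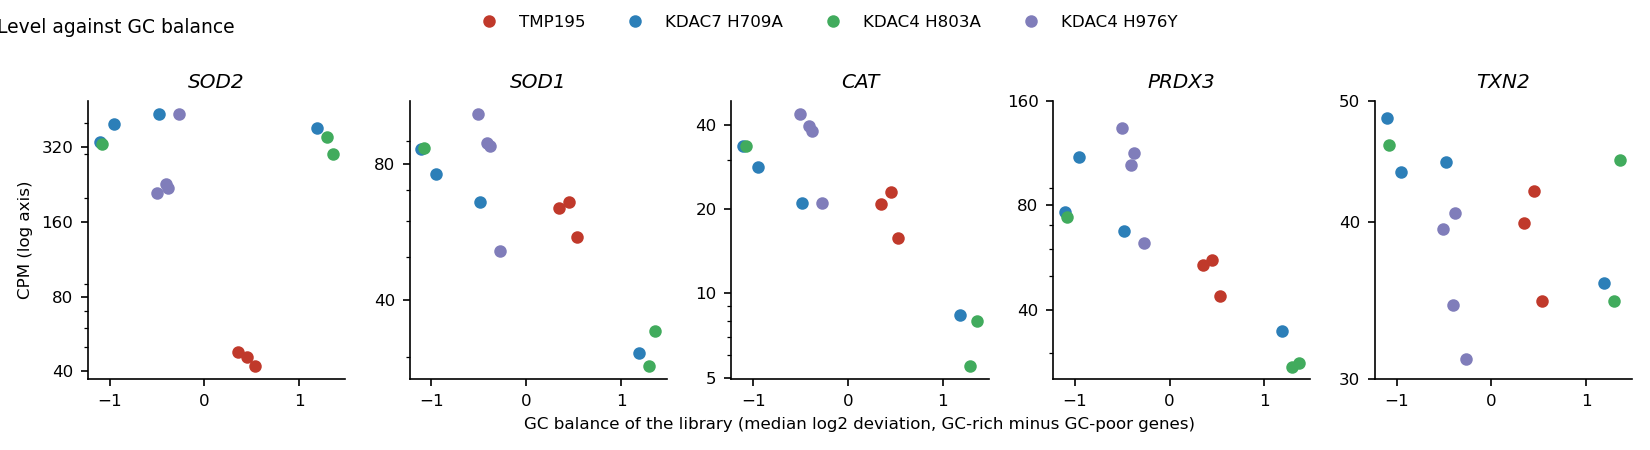
CPM (log axis) of the 5 tested members against the GC balance of each library. SOD1, CAT and PRDX3 are lowest in the 3 libraries with a balance above 1, 2 of KDAC4 H803A and 1 of KDAC7 H709A, while SOD2 is lowest in the TMP195 libraries at a balance of 0.35 to 0.53.

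For SOD1, CAT and PRDX3, calls in comparisons with KDAC4 H803A depended on its replicate 1, which had a balance of -1.08 and counts close to those of KDAC7 H709A replicate 4. Without it, SOD1, CAT and PRDX3 were each called lower in KDAC4 H803A than in KDAC4 H976Y, by log2 fold changes of -1.42, -2.43 and -1.92 (adjusted p = 0.0105, 0.00361 and 0.00407, edgeR). The same 3 genes were then called higher in KDAC7 H709A than in KDAC4 H803A, by 1.07, 1.79 and 1.41 (adjusted p = 0.0492, 0.0228 and 0.0262). These calls set 2 libraries with a balance above 1 against libraries that, but for KDAC7 H709A replicate 1, had a balance below 0. Many other genes were called in such fits. Fits that left out 1 library called up to 8431 of all tested genes in the first comparison and up to 4788 in the second. With all 14 libraries 2679 and 0 of 17780 genes were called. Leaving out both libraries that stand apart gave the same direction, with -1.44, -2.45 and -1.94 for SOD1, CAT and PRDX3 in KDAC4 H803A against KDAC4 H976Y. That fit called 11173 of all tested genes in this comparison and 11360 for KDAC7 H709A against KDAC4 H803A.

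Compared per length, as TPM from the deposited effective lengths, SOD1 was the most abundant member, with a median of 43.7 TPM over the 14 libraries (17.1 to 104 TPM). PRDX3 had a median of 25.1 TPM (9.24 to 81.5), TXN2 19.5 TPM (8.68 to 42.4), SOD2 10.8 TPM (1.72 to 34.0), CAT 10.5 TPM (1.97 to 24.3) and SOD3 at most 0.0817 TPM. Ranges of neighbours in this order overlap, and the TPM of SOD2 depends on the length of 13491 bases: were its reads from shorter transcripts, its TPM would be higher. Within a library, the ratio of PRDX3 to its donor TXN2 in TPM was 1.05 to 1.12 with TMP195, 0.804 to 2.08 in KDAC7 H709A, 0.520 to 1.34 in KDAC4 H803A and 1.67 to 2.81 in KDAC4 H976Y. The ratio of CAT to SOD1 was 0.172 to 0.211 with TMP195, 0.165 to 0.235 in KDAC7 H709A, 0.115 to 0.233 in KDAC4 H803A and 0.246 to 0.269 in KDAC4 H976Y. Both ratios of the KDAC4 H976Y libraries lay above those of TMP195 and of KDAC4 H803A without overlap, and for CAT to SOD1 also above those of KDAC7 H709A. How often ratios of other genes separate these groups was not computed. The 3 libraries with a GC balance above 1 had PRDX3 to TXN2 ratios of 0.804, 0.520 and 0.655 and CAT to SOD1 ratios of 0.165, 0.139 and 0.115. KDAC4 H803A replicate 1, whose name is in doubt, had the highest ratios of its group. The part of GC balance in these ratios was not tested.

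Other genes of the same pathways were followed in 8 lists of 136 genes, of which 120 were tested. For KDAC7 H709A against KDAC4 H976Y, 13 were called higher and 8 lower (17.5%), beside 7.28% higher and 5.19% lower of all tested genes. With GC and length offsets the split was 12 higher and 17 lower, so which direction held more calls depends on that correction. For KDAC4 H803A against KDAC4 H976Y, 13 were called higher and 15 lower (23.3%), beside 9.21% higher and 5.85% lower of all tested genes. With GC and length offsets the split was 12 higher and 22 lower. None was called for KDAC7 H709A against KDAC4 H803A, where edgeR called none of all 17780 genes (1118 at an unadjusted p under 0.05) and DESeq2 called 79 genes. Without KDAC4 H803A replicate 1, 39 pathway genes were called between KDAC7 H709A and KDAC4 H803A and 72 between KDAC4 H803A and KDAC4 H976Y. Without replicate 1, 2 or 3 of KDAC4 H976Y, 10 or 11 were called between KDAC4 H803A and KDAC4 H976Y, and without replicate 2 or 3 of KDAC4 H803A, 12 and 13. Without KDAC7 H709A replicate 1 there were 45 in that comparison, and without KDAC4 H976Y replicate 3 there were 13 for KDAC7 H709A against KDAC4 H976Y. Calls among all tested genes moved widely too. Fits that left out 1 library called 0 to 4788 of them for KDAC7 H709A against KDAC4 H803A. The range was 1129 to 8431 for KDAC4 H803A against KDAC4 H976Y and 1215 to 3440 for KDAC7 H709A against KDAC4 H976Y. The 12 genes with the largest changes per list in KDAC7 H709A against KDAC4 H976Y, and the 13 in KDAC4 H803A against KDAC4 H976Y, kept their direction without KDAC4 H803A replicate 1, without KDAC7 H709A replicate 1 and without both. Of these genes MT1X was no longer called in KDAC4 H803A against KDAC4 H976Y without KDAC4 H803A replicate 1 (adjusted p = 0.0790, edgeR), and UQCRC1 was no longer called in KDAC7 H709A against KDAC4 H976Y without KDAC7 H709A replicate 1 (adjusted p = 0.0692).

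Among other peroxide-removing genes, 0 of 10 tested rose and 2 fell in KDAC7 H709A against KDAC4 H976Y, and 1 rose and 3 fell in KDAC4 H803A against KDAC4 H976Y, with median log2 fold changes of -0.34 and -0.66. Called shares were 20 and 40%, beside 12.5 and 15.1% of all tested genes. PRDX1, the abundant cytosolic peroxiredoxin, averaged 157 ± 47.9 CPM in KDAC7 H709A and 122 ± 18.6 CPM in KDAC4 H803A, against 343 ± 87.7 CPM in KDAC4 H976Y (SD, n = 4, 3 and 4). Its log2 fold changes were -1.13 ± 0.25 (adjusted p = 0.0108) and -1.49 ± 0.28 (adjusted p = 0.00451, edgeR). PRDX5, a peroxiredoxin of mitochondria, peroxisomes and cytosol, fell by 1.11 on the log2 scale in KDAC7 H709A against KDAC4 H976Y (adjusted p = 0.0113). GPX3, a secreted glutathione peroxidase, was higher by 1.78 in KDAC4 H803A than in KDAC4 H976Y (adjusted p = 0.0257), at 3.01 ± 1.21 and 0.908 ± 0.642 CPM.

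In the thioredoxin and glutaredoxin list of 19 tested genes, 1 rose and 3 fell in KDAC7 H709A against KDAC4 H976Y, and 0 rose and 5 fell in KDAC4 H803A against KDAC4 H976Y. Called shares were 21.1 and 26.3%, beside 12.5 and 15.1% of all tested genes. TXNIP, which binds and inhibits thioredoxin, averaged 21.7 ± 4.90 CPM in KDAC7 H709A, against 58.0 ± 7.63 CPM in KDAC4 H976Y (a difference of -1.42 ± 0.20 on the log2 scale, adjusted p = 0.000826, edgeR). IDH2, a mitochondrial source of NADPH, was higher by 1.57 in KDAC7 H709A than in KDAC4 H976Y (adjusted p = 0.0364). TXNDC17 and GLRX2, a thioredoxin-like and a glutaredoxin protein, fell by 1.48 and 1.44 on the log2 scale in KDAC4 H803A against KDAC4 H976Y (adjusted p = 0.0164 and 0.0424). In the metal supply list of 12 tested genes, 3 rose and 1 fell in the first comparison (33.3% called) and 3 rose and 2 fell in the second (41.7% called). COX17, a mitochondrial copper chaperone, averaged 8.10 ± 4.49 CPM in KDAC7 H709A and 24.0 ± 3.68 CPM in KDAC4 H976Y (-1.56 ± 0.34, adjusted p = 0.00870). The zinc exporter SLC30A1 averaged 26.3 ± 23.0 CPM in KDAC4 H803A and 91.8 ± 12.5 CPM in KDAC4 H976Y (-1.80 ± 0.50, adjusted p = 0.0311). The metallothionein MT1X was higher in both variants than in KDAC4 H976Y, by 1.75 and 1.77 (adjusted p = 0.0220 and 0.0250), although reads of this family may be shared among its near-identical members.

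Of 20 tested regulators of SOD2 and CAT, 4 rose and none fell in KDAC7 H709A against KDAC4 H976Y, and 5 rose and none fell in KDAC4 H803A against KDAC4 H976Y. These are 20 and 25%, beside 12.5 and 15.1% of all tested genes, or 7.28 and 9.21% for higher calls alone. FOXO1, an activator of SOD2 and CAT transcription, averaged 30.1 ± 6.46 CPM in KDAC7 H709A and 23.9 ± 13.4 CPM in KDAC4 H803A, against 6.35 ± 1.61 CPM in KDAC4 H976Y. Its log2 fold changes were 2.24 ± 0.31 (adjusted p = 0.000619) and 1.90 ± 0.32 (adjusted p = 0.00245, edgeR). PPARGC1A, a coactivator of mitochondrial genes, was higher by 2.10 in KDAC7 H709A than in KDAC4 H976Y (adjusted p = 0.00663), and FOXO6 by 5.11 ± 1.28 in KDAC4 H803A than in KDAC4 H976Y (adjusted p = 0.0196), at means of 7.34 ± 6.28 CPM and 0.218 ± 0.184 CPM. Of 11 tested NF-kB targets, 5 rose and none fell in KDAC7 H709A against KDAC4 H976Y (45.5% called), and 4 rose and none fell in KDAC4 H803A against KDAC4 H976Y (36.4% called), with medians of 1.07 and 1.26 beside 0.09 for all tested genes in each. TNFAIP3, a feedback inhibitor of NF-kB, was higher by 1.90 ± 0.31 and 1.78 ± 0.32 (adjusted p = 0.00173 and 0.00375), BIRC3 by 2.25 in KDAC7 H709A (adjusted p = 0.0285) and NFKB2 by 1.73 in KDAC4 H803A (adjusted p = 0.000990).

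In the list of mitochondrial matrix and import genes, none of 20 rose, 2 fell in KDAC7 H709A against KDAC4 H976Y and 4 fell in KDAC4 H803A against KDAC4 H976Y. COX4I1 and UQCRC1, respiratory chain subunits, fell by 0.91 and 0.67 on the log2 scale in the first (adjusted p = 0.00993 and 0.0434). NDUFS1 of complex I and ATP5A1 of the ATP synthase fell by 1.01 and 0.95 in the second (adjusted p = 0.0368 and 0.0426). None of 20 peroxisomal genes was called in either comparison. The mitochondrial list had 10 and 20% called, beside 12.5 and 15.1% of all tested genes, or 5.19 and 5.85% for lower calls alone.

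**Figure D5:**
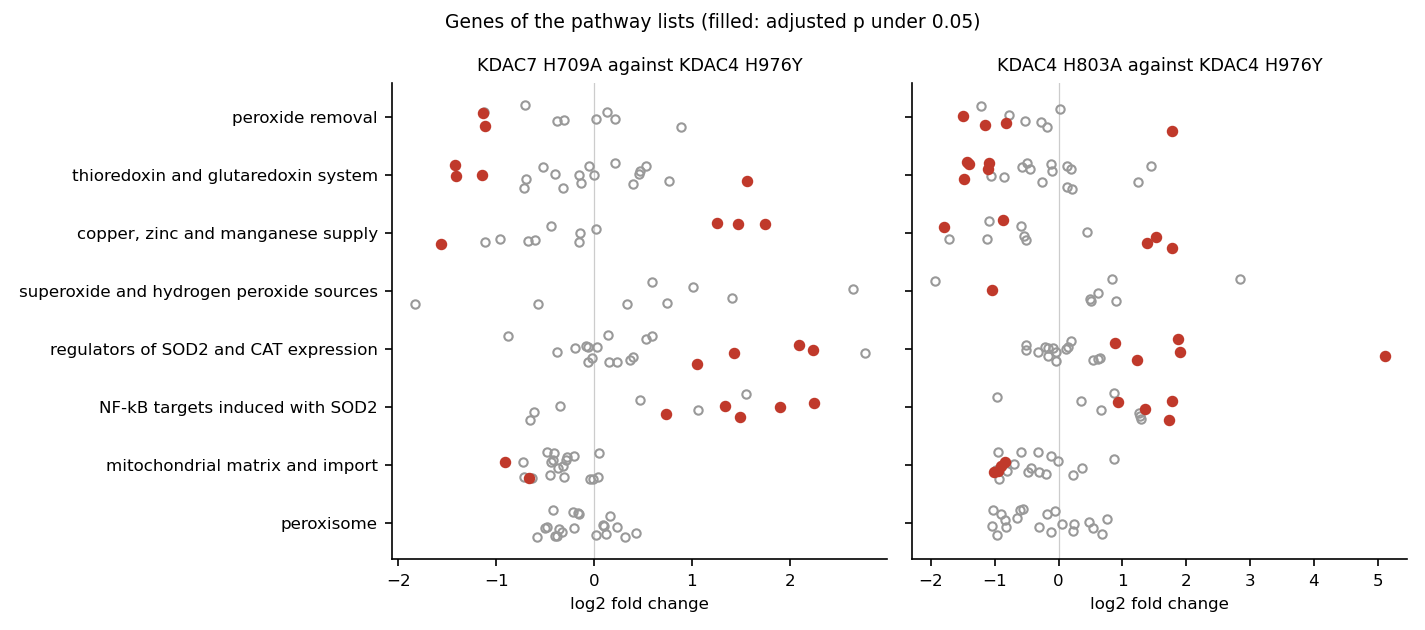
Log2 fold changes (horizontal axes) of the tested genes of the 8 lists for KDAC7 H709A against KDAC4 H976Y (left) and KDAC4 H803A against KDAC4 H976Y (right), with filled points at an adjusted p under 0.05. All filled points of the NF-kB and regulator lists lie above 0, and all those of the mitochondrial list (2 of 20 at left, 4 of 20 at right) lie below 0.

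With TMP195 against the mean of the 3 variants, 6 of the 120 pathway genes were called higher and 2 lower (6.67%), beside 9.22% of all tested genes. DESeq2 called 9 higher and 6 lower, and 2839 genes in all. GPX3 was higher by 1.76 (adjusted p = 0.00713), at 5.44 CPM with TMP195, 1.61 CPM in KDAC7 H709A, 3.01 CPM in KDAC4 H803A and 0.908 CPM in KDAC4 H976Y on average. TXNIP was higher by 1.13 (adjusted p = 0.00117), ATP7B by 0.88, ICAM1 by 2.54 and RELB by 1.06 (adjusted p = 0.0349, 0.0127 and 0.0184, edgeR). TXNIP averaged 66.0 CPM with TMP195 and 58.0 CPM in KDAC4 H976Y, so it was near KDAC4 H976Y and above the other 2 variants. PPARGC1A had a log2 fold change of -1.82 and the NADPH oxidase DUOX2 one of -4.98 (adjusted p = 0.0180 and 0.0270), with DUOX2 at 0.0649 CPM with TMP195. PPARGC1A averaged 0.953 CPM with TMP195, 5.82 CPM in KDAC7 H709A, 4.96 CPM in KDAC4 H803A and 1.34 CPM in KDAC4 H976Y, so it was near KDAC4 H976Y and below the other 2 variants. Of 11 tested NF-kB targets 2 were called higher and none lower with TMP195, with a median of 0.35. Of the pathway genes 1, NNT, shares the long stretch of SOD2. Leaving out any TMP195 library left 2 to 4 pathway genes called, and leaving out KDAC7 H709A replicate 1 left 15. Fits that left out 1 library called 584 to 2761 of all tested genes in this comparison.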

How the data were processed

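Expected counts (RSEM estimates, not normalized) were deposited for each gene and HT1080 library in 1 table. Trimmomatic 0.39, Bowtie2 2.4.5, RSEM 1.3.3, DESeq2 1.38.2 and GRCh38 are named, with no roles, per the submitters' processing notes. RSEM shares reads that match several transcripts among them. For the annotation release and the strand setting, no value is given in the sources used here. The deposited column of KDAC4 H803A replicate 4 holds effective gene lengths, a value classed as other than a count: it equals transcript length minus 248.86 bases within 0.02 bases for 96.8% of 7612 single-transcript genes over 1000 bases, against at most 0.236% in other columns. It was left out of all tests and used only for TPM, so 14 libraries were fitted in place of the 15 in the labels.

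Expected counts were rounded. Genes passing edgeR's filterByExpr (minimum count 10, minimum total 15) numbered 17780. TMM scaling was followed by 1 fit of all 14 libraries with group as the sole term and the quasi-likelihood test of edgeR 4.0.16 under R 4.3.3 with limma 3.58.1, with Benjamini-Hochberg adjustment over all 17780 genes and calls at an adjusted p under 0.05. Standard errors were obtained from the log2 fold change and F. DESeq2 1.42.0 and 22 alternatives in all were run. The fit was also run on simulated counts with a lower dispersion than the common value of 0.179 in these libraries and with no difference in GC balance. That run does not show how the fit behaves on these data. Coordinates are from GENCODE v29 on GRCh38, which matched 57055 of 60675 gene IDs, and promoters from RefSeq, which matched 4 of the 6 members by symbol. Transcripts were aligned with megablast (BLAST 2.17.0, identity of at least 85%, no low-complexity filter, expected value at most 1e-20).

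The members, the pathway lists, the tests and the alternatives were chosen with earlier results of these data known. Named were all members, their copies and overlapping genes, the 2 largest called changes per pathway list and comparison between variants, and the 3 genes (5 for SOD2) whose log2 CPM was most like each member, among genes with a mean of at least 10 CPM. Some genes of the pathway lists are not reported here by name. The genes called with TMP195, MAS1 and the genes that share sequence with SOD2 were picked out after values were seen. Replicate numbers are shared between groups, but same-numbered libraries did not deviate together (r from -0.687 to 0.358 over 19 pairs, median -0.10), so the main fit did not pair them. A low correlation cannot exclude a shared batch, and the names of KDAC4 H803A replicate 1 and KDAC7 H709A replicate 1 are in doubt.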

Additional observations from a re-analysis of the deposited data

Results flagged for a closer look

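SOD2 in KDAC4 H976Y replicate 4, at 437 CPM, stood apart from the other 3 libraries of its group, at 229, 218 and 209 CPM. The gap to its nearest neighbour exceeds Dixon's critical value at the 95% level. It was the single such value in 10 groups of 4 libraries tested, and chance flags about 1 in 20 groups. In the same library the median of the 107 genes that share a long stretch with SOD2 was 1.00 above the mean over libraries on the log2 scale, against 0.08 to 0.22 in the other 3. That library also had the lowest depth, with 6151383 counts, and the largest share of mitochondrially encoded ribosomal RNA, 31.5%. Their part in the value was not tested.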

How the results depend on the processing

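The value of SOD2 with TMP195 kept its direction in 21 alternatives, from -2.91 to -2.30. The highest values came from GC and length offsets, alone (-2.33) and with the replicate block (-2.30). Reversed signs were limited to KDAC7 H709A against KDAC4 H803A: SOD2 was at -0.0048 with GC and length offsets and -0.048 with the replicate block added to them, and TXN2 at -0.066 and -0.017 without KDAC4 H803A replicate 3 and KDAC7 H709A replicate 4, within a range of -0.066 to 0.143 without single libraries.

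For KDAC7 H709A against KDAC4 H976Y, 2218 genes were called, with 3394 by DESeq2, 1322 with the replicate block, 6250 without both libraries that stand apart and 1215 to 3440 without single libraries. Members called were 0, with 0 to 1 without single libraries. Pathway genes called were 21, with 43 without both libraries and 13 to 29 without single ones. For KDAC7 H709A against KDAC4 H803A, 0 genes were called, with 14 without a filter, 79 by DESeq2, 11360 without both libraries and 0 to 4788 without single ones. Members called were 0, with 3 without both libraries and 0 to 3 without single ones, and pathway genes called were 0, with 88 and 0 to 39. For KDAC4 H803A against KDAC4 H976Y, 2679 genes were called, with 4377 by DESeq2, 1230 with the replicate block, 1634 with the compared groups alone, 11173 without both libraries and 1129 to 8431 without single ones. Members called were 0, with 1 by DESeq2, 1 with GC and length offsets, 1 with the replicate block added to these, 3 without both libraries and 0 to 3 without single ones. Pathway genes called were 28, with 18 without a filter, 13 with the replicate block, 17 with the compared groups alone, 94 without both libraries and 10 to 72 without single ones. For TMP195 against the mean of the 3 variants, 1640 genes were called, with 2839 by DESeq2, 837 with the replicate block, 5795 without both libraries and 584 to 2761 without single ones. Pathway genes called were 8, with 15 by DESeq2, 5 with the replicate block, 41 without both libraries and 2 to 15 without single ones. The causes were not tested. The block and the fits without a library have fewer residual degrees of freedom, and nothing in the labels ties the replicate numbers to a day or batch.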
